A study of Mus musculus with 2 samples.

Results

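Long intergenic noncoding RNAs (lincRNAs) are transcripts of more than 200 nucleotides that lie between protein-coding genes and carry no annotated protein. They act in different ways. Some stay in the nucleus and collect splicing factors, some are cut to release microRNAs or small nucleolar RNAs, some are transcribed beside a developmental gene, and a few work in the cytoplasm by binding proteins or microRNAs. The abundant lincRNAs of the embryonic mouse midbrain were taken as the genes of type lincRNA in the GENCODE M21 annotation whose deposited level was at least 5 TPM (a transcript level corrected for length and library size) in both libraries. Gm42418, Meg3, Rian, Mirg and H19 were left out by name. This gave 93 genes of the 2777 lincRNA genes in the tables (3.35%) and of 43346 Ensembl genes in all. The members were chosen by their measured TPM in both libraries, so their levels are a description and were not tested.

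The series holds total RNA-seq of the midbrain at embryonic day 14.5 from B6NCrl mice, a C57BL/6N substrain, with no treatment and no altered gene. There were 2 libraries, 1 from each of 2 single midbrains dissected on different days, here called embryo 1 and embryo 2 after their biological replicate numbers. The sex label says pooled male and female for both, although each midbrain is described as that of 1 pup. RNA longer than 200 nucleotides was extracted with the mirVana kit, 10 ng went into each library, and ERCC spike-in RNAs were added.

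The tables held 31687015 expected counts for genes in embryo 1 and 29182364 in embryo 2, and ERCC RNAs took 3.15% and 3.32% of all counts. Markers of neurons summed to 2893 TPM in embryo 1 and 3048 TPM in embryo 2, and those of progenitors to 1750 and 1887 TPM. The midbrain genes Otx2, En1 and Gata3 summed to 210 and 160 TPM. Hoxa2 and Hoxb2 of the hindbrain summed to 0.31 TPM in embryo 1 and 0.17 TPM in embryo 2. Both libraries thus carried the markers of the labelled tissue. They differed in connective tissue RNA: the 4 mesenchyme markers (Col1a1, Col3a1, Dcn and Lum) summed to 322 TPM in embryo 1 and 4.66 TPM in embryo 2, and all 4 were at least 2-fold higher in embryo 1. All 3 markers each of microglia (23.2 against 9.09 TPM), endothelium (104 against 71.7 TPM) and red blood cells (6325 against 4315 TPM) were also higher in embryo 1 than in embryo 2. In a whole tissue, fewer cells of a type and less RNA per cell cannot be told apart.

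The short sequences that the results below turn on are the mature microRNAs of the hosts, a microRNA site, the repeated motifs of 3 members, a promoter window with a coding start in it, and a copy of Meg3. All 3 mouse loci of miR-9, a microRNA of neural progenitors, lay inside members, so that microRNA is shown first. The 2 mature forms are printed 5′ to 3′ with the seed, bases 2 to 8, in capitals, and come from RefSeq (GRCm38.p6).
mmu-miR-9-5p: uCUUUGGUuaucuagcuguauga
mmu-miR-9-3p: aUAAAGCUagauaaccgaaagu
Other members hosted miR-101a, miR-129 and miR-374b, microRNAs with other seeds.
mmu-miR-101a-3p: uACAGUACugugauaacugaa
mmu-miR-129-5p: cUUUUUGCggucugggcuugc
mmu-miR-374b-5p: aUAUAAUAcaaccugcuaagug
The last microRNA, miR-7a, is not hosted by a member. It is shown with the site in 1700020I14Rik, the gene known as Cyrano, which is known in mouse to bring about the decay of that microRNA. In the site the capitals mark the bases opposite the seed (GRCm38 chr2:119602137-119602161, plus strand, in the GENCODE M21 transcript).
mmu-miR-7a-5p: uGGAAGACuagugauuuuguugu
1700020I14Rik: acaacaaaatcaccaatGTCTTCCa

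A few RNAs held most of the signal. The 93 genes summed to 9279 TPM in embryo 1 and 9752 TPM in embryo 2, which was 0.928% and 0.975% of all TPM and 41.5% and 41.3% of the TPM of all lincRNA genes. Malat1, a nuclear RNA that gathers in splicing speckles, took 49.6% of the members' TPM in embryo 1 and 54.7% in embryo 2. Gm26917 took 21.2% and 16.4%. Without both genes, the sum was 2712 TPM in embryo 1 and 2826 TPM in embryo 2. The median member stood at 11.9 TPM in embryo 1 and 12.2 TPM in embryo 2. By mean TPM of both embryos, 9 members reached 100, 24 lay between 20 and 100, 20 between 10 and 20, and 40 below 10. Of the other lincRNA genes, Gm42418, left out by name, alone held 51.8% of all lincRNA TPM in embryo 1 and 48.5% in embryo 2. Without it the members held 85.9% and 80.2%. Of all 2777, 1650 had no count in either library and 259 reached 1 TPM in both.

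The members just inside the minimum were Gm26803 at 5.13 TPM in embryo 1 and 5.28 TPM in embryo 2 and Gm13830 at 5.21 and 8.92 TPM. Just outside were D230017M19Rik at 4.88 and 5.02 TPM and 1810044D09Rik at 5.67 and 4.73 TPM. The minimum was reached in 1 library only by 17 lincRNA genes. The highest of these was Xist, the RNA that coats the inactive X chromosome, at 0.01 TPM (3 counts) in embryo 1 and 62.0 TPM in embryo 2. The value in embryo 1 goes against the label of pooled male and female. The growth-linked imprinted gene H19 followed, at 29.5 TPM in embryo 1 and 4.24 TPM in embryo 2. Gm26718 had 6.82 and 3.61 TPM, and Gm17275 had 3.74 and 6.78 TPM.

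**Figure D1:**
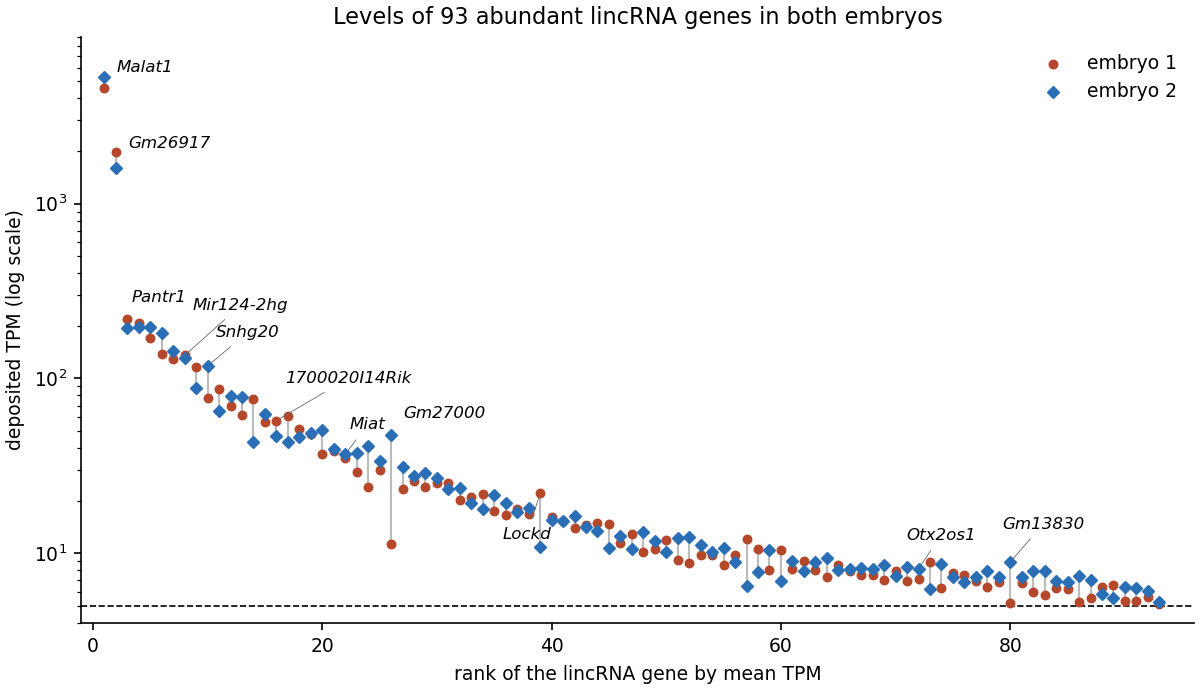
Deposited TPM (log scale) of each of the 93 lincRNA genes in embryo 1 (circles) and embryo 2 (diamonds), ordered by mean TPM. The grey line joins the values of a gene and the dashed line is the minimum of 5 TPM. Malat1 and Gm26917 stand apart from the rest in both embryos, and Gm27000 has the widest gap between the embryos.

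Among the nuclear RNAs, Malat1 stood at 4601 TPM in embryo 1 and 5330 TPM in embryo 2, a mean of 4965 ± 516 TPM (SD, n = 2). Both embryos placed it first. Its rank rested on how reads were divided between transcripts. A transcript of 485 bases at the 5′ end of the gene carried 4540 TPM in embryo 1 and 5263 TPM in embryo 2, while the full-length transcript of 6983 bases carried 60.2 and 64.4 TPM. The short form took 80.9% of the gene's expected counts in embryo 1 and 82.0% in embryo 2. When all reads of each gene were placed on its longest transcript, Malat1 averaged 337 TPM, and Gm26917, at 1781 TPM, came first. In plain counts Gm26917 was also above Malat1, with 121635 against 41504 counts in embryo 1 and 98501 against 47352 counts in embryo 2. Miat, a nuclear RNA of neurons also called Gomafu, had 35.0 TPM in embryo 1 and 36.8 TPM in embryo 2 and averaged 35.9 ± 1.24 TPM (SD, n = 2). Of the 7 nuclear RNAs listed for this comparison, these were the 2 members. Others carry another gene type in the annotation, such as Tug1 at 237 TPM in embryo 1 and 121 TPM in embryo 2. Firre, also of another type, had 13.0 and 8.42 TPM. Neat1, the scaffold of paraspeckles, was at 0.49 TPM in embryo 1 and 0.23 TPM in embryo 2.

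Gm26917 had 1966 TPM in embryo 1 and 1595 TPM in embryo 2. It is a single-exon gene on the plus strand of chromosome 17 (GRCm38 chr17:39843013-39846341). It ends 616 bases before Gm42418 (39846958 to 39848788), a locus known to contain ribosomal RNA sequence, which had 11582 TPM in embryo 1 and 11458 TPM in embryo 2. Whether reads of Gm26917 come from ribosomal RNA was not tested. The search for copies given below covered annotated transcripts only. The order of the genes below Malat1 and Gm26917 was close. Pantr1 had 219 TPM in embryo 1 and 195 TPM in embryo 2, and Gm3764 had 206 and 197 TPM. Gm10076 had 171 and 198 TPM, so the embryos do not place these 3 genes in the same order. Gm17750 had 137 and 181 TPM, Lhx1os 130 and 144 TPM, Mir124-2hg 135 and 131 TPM, and Gm7292 116 and 88.5 TPM. The 12 highest genes ended with Snhg20 at 77.3 and 118 TPM, 1810058I24Rik at 86.7 and 64.9 TPM, and Snhg6 at 69.9 and 78.8 TPM.

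Of the 93 genes, 34 had 1 transcript and 59 had several, 277 in all. The leading transcript was the same in both embryos for 53 of these 59, and in 37 it took over 50% of the gene's TPM in both. The other 6 were Pantr1, Lhx1os, 5031425E22Rik, 2810429I04Rik, Otx2os1 and Jpx. In Pantr1 a transcript of 615 bases led in embryo 1 with 38.4% of the gene's TPM, against 25.1% in embryo 2. One of 499 bases took 33.1% in embryo 1 and led with 47.3% in embryo 2. Leading transcripts had a median length of 1017 bases, and 16 of 92 had a single exon. With all reads on the longest transcript, 81 of the 93 genes stayed at or above 5 TPM and 10 of the 12 highest remained among the 12 highest. Lengths for this were those deposited, and some transcripts are longer in M21.

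**Figure D2:**
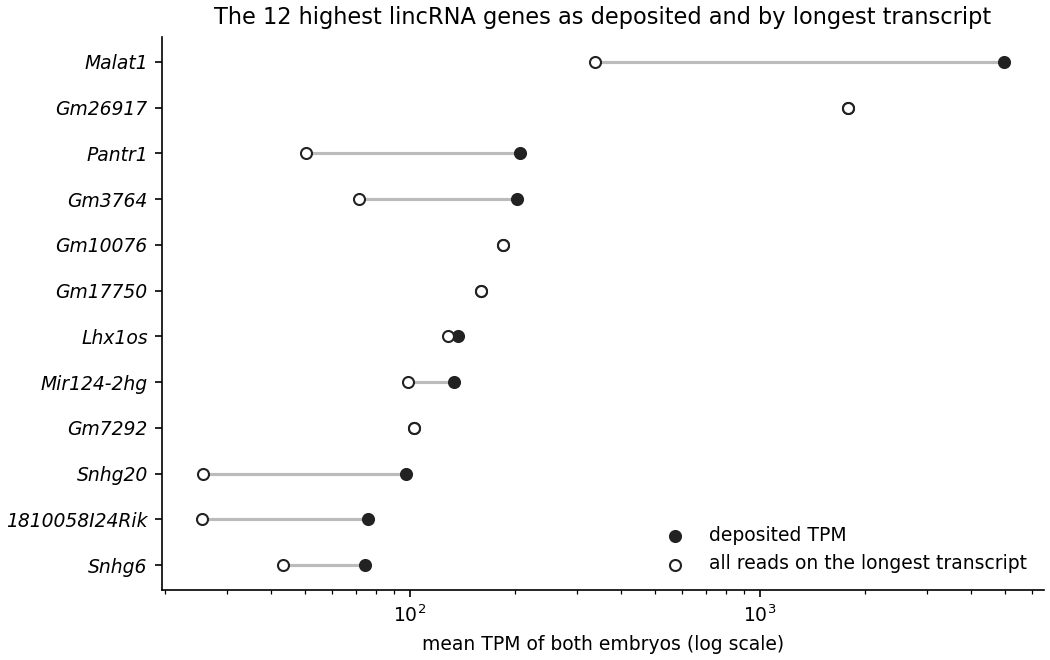
Mean TPM of both embryos (log scale) for the 12 highest lincRNA genes, as deposited (filled) and with all reads of a gene placed on its longest transcript (open). Malat1 moves from 4965 to 337 TPM, and genes with a single open symbol, such as Gm26917, have nearly the same value both ways.

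MicroRNA hosts were frequent among the members. A microRNA gene lay inside 13 members on the same strand (13.98%), against 33 of the other 2684 lincRNA genes (1.23%). Of those 2684 genes, 1650 had no count in either library, so expressed genes are set beside many silent ones. The same holds wherever members are set beside the other lincRNA genes below. Gm3764, which contains Mir9-1, had 206 TPM in embryo 1 and 197 TPM in embryo 2. C130071C03Rik, which contains Mir9-2, had 48.0 and 48.4 TPM, and Mir9-3hg had 51.5 and 46.3 TPM. All 3 genes that contain the miR-9 sequences printed above were thus abundant in both embryos, and the gene with Mir9-1 was the highest of them. Hosts of miR-124, a microRNA of differentiating neurons, were members too. Mir124-2hg had 135 TPM in embryo 1 and 131 TPM in embryo 2, and Mir124a-1hg had 56.1 and 62.3 TPM. These are levels of the long host transcripts, since RNA under 200 nucleotides was not kept.

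The other hosts ranged widely. Mir670hg, which spans Mir670 and Mir129-2, had 8.52 TPM in embryo 1 and 8.04 TPM in embryo 2. E130102H24Rik, which contains Mir101a, had 7.89 and 8.15 TPM, and 2900076A07Rik, which contains Mir1839, had 24.0 and 28.6 TPM. On the X chromosome, 5330434G04Rik (Mir325) had 17.9 and 17.3 TPM, C230004F18Rik (Gm24396) had 10.2 and 13.2 TPM, and Ftx (Mir421 and Mir374b) had 6.98 and 7.32 TPM. Snhg20 (Mir6516), at 77.3 and 118 TPM, and Gm27000 (Mir1906-2), at 11.3 and 47.6 TPM, completed the 13. Of the 14 host genes listed, 11 were in the tables and 5 were members. Mir17hg, the host of a microRNA cluster of dividing cells, stayed below the minimum at 3.71 TPM in embryo 1 and 2.98 TPM in embryo 2. Mir99ahg, at 75.2 and 79.3 TPM, carries another gene type in the annotation.

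Small nucleolar RNAs guide the chemical modification of ribosomal RNA and are cut from the introns of their hosts. A gene for such an RNA, or for the related Cajal body RNAs, lay inside 5 members (5.38%), against 11 of the other lincRNA genes (0.410%). Snhg12, which spans genes for Snora16a, Snora44, Snora61 and Snord99, had 20.2 TPM in embryo 1 and 23.6 TPM in embryo 2. Snhg6, the host of Snord87, had 69.9 and 78.8 TPM. Epb41l4aos had 17.6 and 21.6 TPM. Snhg20 had 77.3 TPM in embryo 1 and 118 TPM in embryo 2, and its scaled counts were 1.61-fold higher in embryo 2. Of the 22 small nucleolar RNA hosts listed, 14 were in the tables, and these 4 were members. Others, such as Gas5 at 375 and 400 TPM, carry another gene type in the annotation.

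Repeated motifs set apart 2900097C17Rik, its near-identical copy Gm7292, and Miat. Norad, annotated as 2900097C17Rik, is a cytoplasmic RNA known in human and mouse cells to bind Pumilio proteins, which recognise the motif TGTANATA (N for any base). Matches were counted on the sense strand of the longest M21 transcript of the 2894 annotated lincRNA genes that have one of at least 1000 bases, 69 of them members. The motif occurred in 24.0% of the 2894 genes and in 28 of the 69 members (40.6%), and transcript length was not matched. 2900097C17Rik had 11 matches, more than any other gene, followed by Gm7292 with 9 and C230004F18Rik with 8. The highest count in a gene that is no member was 6. Miat is known in mouse to bind the splicing factor SF1 through repeats of TACTAAC. That motif occurred in 6.15% of the genes and in 3 of the 69 members (4.35%). Miat had 6 matches and no other gene more than 2.

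The windows below, from GENCODE M21 transcripts on GRCm38, show why the first pair of genes has to be read together and how closely the Miat repeats are spaced. Capitals mark the motifs. The stretch of 2900097C17Rik (chr2:156391339-156391467, minus strand) and that of Gm7292 (chr6:117717827-117717955, plus strand) are the same over all 129 bases. The Miat window is chr5:112217309-112217460 on the minus strand.
2900097C17Rik: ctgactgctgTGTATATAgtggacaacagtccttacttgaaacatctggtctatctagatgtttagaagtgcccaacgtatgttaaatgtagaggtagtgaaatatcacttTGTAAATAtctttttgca
Gm7292: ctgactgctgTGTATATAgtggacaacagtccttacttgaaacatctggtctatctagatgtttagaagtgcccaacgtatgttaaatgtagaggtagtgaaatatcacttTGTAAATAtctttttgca
Miat: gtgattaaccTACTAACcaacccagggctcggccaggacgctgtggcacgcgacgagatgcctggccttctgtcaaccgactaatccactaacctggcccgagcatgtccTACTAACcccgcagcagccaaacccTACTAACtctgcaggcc

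**Figure D3:**
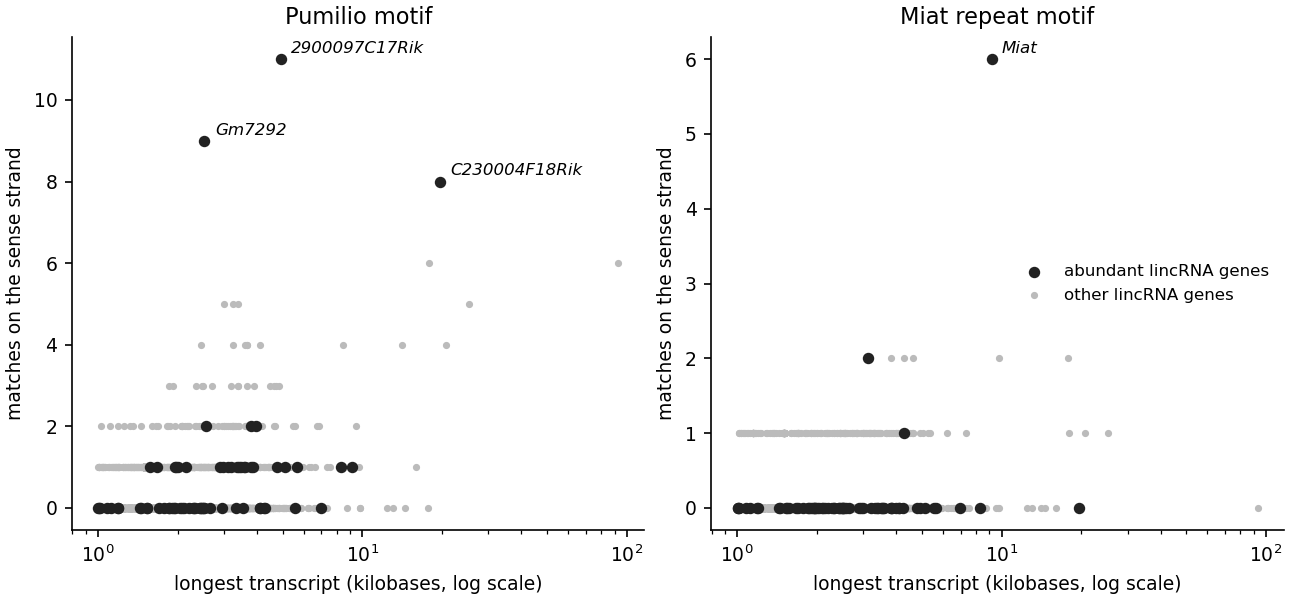
Matches on the sense strand of the Pumilio motif (left) and of the Miat repeat motif (right) against the length of the longest transcript (kilobases, log scale) for 2894 lincRNA genes, with the 69 abundant ones in black. 2900097C17Rik has 11 Pumilio matches and Gm7292 has 9, and Miat has 6 matches of its repeat motif.

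Of the cytoplasmic and stress-linked RNAs, 9 were listed, 6 were in the tables and 3 were members. 2900097C17Rik had 76.5 TPM in embryo 1 and 43.6 TPM in embryo 2, and Gm7292 had 116 and 88.5 TPM. Both were higher in embryo 1. They align over 2537 positions at 99.2% identity, with 9 mismatches and 12 gap positions, so reads of the shared stretch cannot be assigned with certainty. In the annotation used for the tables, 2900097C17Rik was 1149 bases long, against 4915 bases in M21. Gm7292 was 2527 bases long in both. Whether reads of 2900097C17Rik from outside its 1149 bases were counted for Gm7292 was not tested. The counts of both genes together were 6941 in embryo 1 and 4982 in embryo 2, a scaled ratio of 1.26 (95% interval 1.21 to 1.30). 1700020I14Rik (Cyrano) had 57.4 TPM in embryo 1 and 47.1 TPM in embryo 2. Its miR-7a site, printed above, has more than the seed match: upstream of it, across an offset of 2 bases, 14 of 15 bases can pair with the rest of the microRNA, 13 of them in a row. A seed match alone occurred in 503 of the 2894 genes (17.4%). Gm26917, described above, was the third member on this list.

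Members lay near protein-coding genes. The median distance to the nearest coding start was 17.3 kb, against 63.4 kb for the other lincRNA genes. The nearest coding gene itself reached 5 TPM in both embryos for 62 members (66.7%), against 45.9% of the other lincRNA genes, and 47.4% of all coding genes did so. In 20 members (21.5%) the start lay within 5 kb of a coding start and pointed away from it, an arrangement called divergent, as it did in 212 of the other lincRNA genes (7.90%). In promoter windows of 300 bases from RefSeq, 51 members found by symbol had a median of 20 CpG dinucleotides, 916 other lincRNA genes a median of 4, and 8101 coding genes at 5 TPM a median of 22. The RefSeq start can differ from the M21 start used for the distances: 6 of the 51 windows lay over 1 kb away, and the 45 others also had a median of 20. At least 10 CpG were present in 76.5% of the 51, 20.1% of the 916 and 88.5% of the 8101 windows.

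Of the 20 coding neighbours in divergent pairs, 19 reached 5 TPM in both embryos. The lincRNA was below its neighbour in both embryos in 13 pairs and above it in both in 4. Pantr1 starts 926 bases from Pou3f3, a transcription factor of neural progenitors and neurons. Pantr1 had 219 TPM in embryo 1 and 195 TPM in embryo 2, and Pou3f3 had 19.7 and 15.7 TPM. Lhx1os starts 125 bases from Lhx1, a LIM-homeodomain transcription factor. Lhx1os had 130 and 144 TPM, and Lhx1 had 42.9 and 39.0 TPM. AI480526 beside Setd1b and Gm38102 beside Rhof were the other 2 pairs with the lincRNA higher, and these 2 members overlap each other by 3757 bases on opposite strands. At the other end, Gm13830 had 5.21 and 8.92 TPM beside Dynll1, a dynein light chain, at 962 TPM in embryo 1 and 1023 TPM in embryo 2. The TPM scale sets these levels per length, and with all reads on its longest transcript Pantr1 averaged 50.6 TPM.

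The window that holds both starts of the Lhx1 pair is shown because both genes start within it. It spans chr11:84525410-84525709 (GRCm38.p6, RefSeq, plus strand), and the capitals run from the Lhx1 start (84525535, minus strand) to the Lhx1os start (84525660, plus strand). The 300 bases hold 33 CpG.
Lhx1os promoter: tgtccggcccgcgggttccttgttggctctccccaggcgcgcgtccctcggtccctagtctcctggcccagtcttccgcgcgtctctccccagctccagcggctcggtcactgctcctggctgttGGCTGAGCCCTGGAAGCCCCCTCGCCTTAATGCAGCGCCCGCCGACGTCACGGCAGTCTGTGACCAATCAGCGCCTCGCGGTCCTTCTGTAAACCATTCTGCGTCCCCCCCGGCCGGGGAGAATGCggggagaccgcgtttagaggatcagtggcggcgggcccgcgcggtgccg

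**Figure D4:**
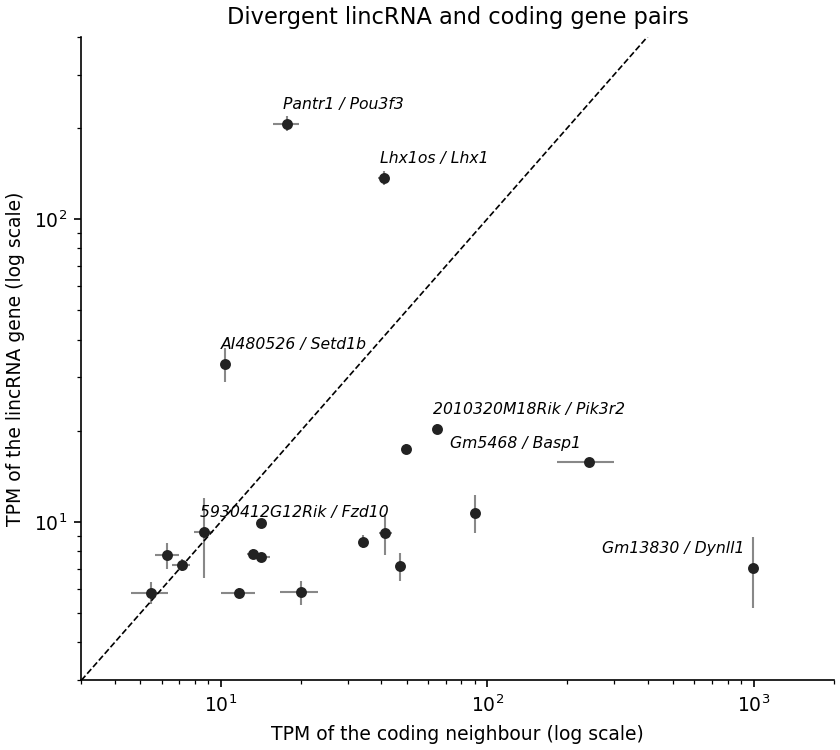
Mean TPM of both embryos for 20 divergent pairs, coding neighbour on the horizontal and lincRNA gene on the vertical axis (both log scales). Lines span the values of the embryos and the dashed line marks equal levels. Pantr1 and Lhx1os lie above the line, and Gm13830 lies farthest below it.

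Neighbours of neural regulators were listed as 26 genes, of which 21 were in the tables and 3 were members. Besides Pantr1 and Lhx1os, this was Otx2os1, at 7.10 TPM in embryo 1 and 8.14 TPM in embryo 2. It starts 5111 bases from Otx2, a transcription factor of the forebrain and midbrain, which had 99.9 and 76.3 TPM. Hotair, a trunk and limb RNA of the Hox clusters, had no count in either library. Others, such as Crnde at 48.5 and 44.7 TPM, carry another gene type in the annotation. Of the 4 genes linked to X inactivation, Ftx and Jpx were members. Jpx, known to act on Xist, had 5.27 TPM in embryo 1 and 7.37 TPM in embryo 2. Ftx had 6.98 and 7.32 TPM, so both RNAs were present in both embryos while Xist was close to 0 in embryo 1. Of the 14 brain lincRNAs listed, 10 were in the tables and 1, 2810032G03Rik, was a member, at 7.54 and 6.87 TPM. Most others were kept out by name or gene type. Meg3 (845 and 1697 TPM), Mirg (16.6 and 25.8 TPM) and H19 were left out by name. Rian (161 and 249 TPM), Snhg14 (287 and 282 TPM) and 6330403K07Rik (255 and 447 TPM) carry another gene type. Airn and Kcnq1ot1, also of another type, and the lincRNA gene A330008L17Rik stayed below 5 TPM.

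Some members share their locus or their sequence with another gene. The span of 23 members (24.7%) overlapped a coding gene, against 11.5% of the other lincRNA genes. For 3 of these a coding gene lay on the same strand, and for 20 only on the opposite strand. Exons of a coding gene covered at least 50% of the leading transcript in 6 of 92 members, namely Gm26735 over Sox4, Gm5914 over Ctcf and Agrp, Gm28592 over Phlda1, Gm26733 over Zfp26, Gm26751 over Nynrin and Gm26699 over Luc7l2. Gm26735 had 61.0 TPM in embryo 1 and 43.1 TPM in embryo 2, and Sox4, a transcription factor of young neurons, had 227 and 236 TPM. No source used here gives whether reads were counted by strand, so reads of these members and of their partners may not be told apart. The same holds for 3 pairs of members that overlap each other on opposite strands: C130071C03Rik and Gm26803 by 6141 bases, AI480526 and Gm38102 by 3757 bases, and Ftx and Jpx by 4790 bases. Gm26700 also matched Rmst, a lincRNA gene at the same locus, on the opposite strand at 100% identity over 1758 bases. No value for Rmst was available, so reads of Rmst may have been counted for Gm26700.

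Among M21 transcripts, a near-identical copy at another locus was found for 5 members. A copy had at least 95% identity over at least 50% of the leading transcript. Beside the pair of 2900097C17Rik and Gm7292, Gm10076 matched the ribosomal protein gene Rpl41 at 99.5% over 383 bases. Gm10076 had 171 TPM in embryo 1 and 198 TPM in embryo 2, and Rpl41 had 1918 and 2163 TPM. Gm13166 matched the zinc finger genes Zfp991 and Zfp993, and Gm27000 matched Meg3. The levels of these 5 members are uncertain for this reason.

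The embryos were compared by the ratio of expected counts, scaled with TMM (a scaling to a common library size), embryo 1 over embryo 2. With 1 library from each embryo there is no test between them. Xist had 0.01 TPM in embryo 1 and 62.0 TPM in embryo 2, so the embryos may differ in sex. Such a difference cannot be told apart from other differences between the embryos. Its part in the ratios, also those of X-linked members such as Jpx, C230004F18Rik and Gm27000, was not tested. The 95% intervals cover counting error only, not differences between animals or the assignment of reads. Of the 92 members with at least 100 counts in both libraries together, 1 was at least 2-fold apart (1.09%). Among all 14011 genes with that many counts, 680 were (4.85%), with 477 genes higher in embryo 1 (3.4% of the 14011) and 203 higher in embryo 2 (1.45%). Among the 10696 of these genes at 5 TPM or more in both embryos, 178 were 2-fold apart (1.66%), so the members' share was near that of other genes at this level. At 1.5-fold, 10 members (10.9%) and 14.2% of the 14011 genes were apart. These 2 sets are unlike, since the 14011 genes had no TPM minimum, and the 1.5-fold share of the 10696 genes was not worked out.

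The member 2-fold apart was Gm27000, a single-exon gene of 842 bases on the X chromosome (GRCm38 chrX:88759471-88760312, minus strand). It had 11.3 TPM in embryo 1 and 47.6 TPM in embryo 2, from 161 and 676 expected counts. The ratio was 0.215 (95% interval 0.180 to 0.256), which is 4.66-fold higher in embryo 2. It matches a Meg3 transcript of 10 exons over all 842 bases with a single difference, G162A, counted from the 5′ end of Gm27000 with the Meg3 base first. Meg3, an imprinted RNA of neurons on chromosome 12, had 845 TPM in embryo 1 and 1697 TPM in embryo 2 and was 1.88-fold higher in embryo 2. The deposited bounds of Gm27000 were wide, from 4.49 to 20.6 TPM in embryo 1 and from 30.1 to 61.6 TPM in embryo 2. The windows around the differing base, in capitals, come from GENCODE M21 transcripts (chrX:88760121-88760181, minus strand, and chr12:109543736-109543796, plus strand).
Gm27000: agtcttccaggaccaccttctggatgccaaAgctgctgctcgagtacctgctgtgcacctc
Meg3: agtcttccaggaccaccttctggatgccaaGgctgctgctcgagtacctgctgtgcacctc

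The other members from 1.5-fold apart, named after their values were seen, were mostly higher in embryo 2. On the other side were Lockd and 2900097C17Rik, both higher in embryo 1. Lockd, a gene downstream of the cell cycle inhibitor Cdkn1b, had 22.1 TPM in embryo 1 and 10.9 TPM in embryo 2, a ratio of 1.82 (95% interval 1.36 to 2.44). These TPM rest on a leading transcript of 441 bases as deposited, against 5662 bases in M21. Markers of dividing cells (Mki67, Top2a and Cdk1) also stood higher in embryo 1, at a sum of 139 TPM against 71.0 TPM in embryo 2, and their part in the difference was not tested. Cdkn1b itself had 24.1 and 23.4 TPM. Gm13830 had 5.21 TPM in embryo 1 and 8.92 TPM in embryo 2, and Gm5914 had 23.9 and 41.3 TPM. Both lay just under 2-fold, at 1.94 and 1.93 times higher in embryo 2.

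Across the members the ratios leaned to embryo 2. The ratio was below 1 in 74 of the 93 members (79.6%) and above 1 in 19. Of the 10696 genes at 5 TPM in both embryos, 53.3% were higher in embryo 2, as were 52.2% of the coding genes among them. The 95% interval lay below 1 in 43 members (46.2%), above 1 in 10 (10.8%) and spanned 1 in 40 (43.0%). For the 10696 genes these shares were 37.0%, 32.7% and 30.4%, and the width of an interval depends on the counts of its gene. The median log2 ratio was -0.25, against -0.03 over the 10696 genes and -0.02 over the coding genes among them. By ERCC scaling these were -0.14 for the members and 0.08 over the 10696 genes. By the deposited TPM they were -0.11 for the members and 0.11 over the 10696 genes. ERCC scaling moves every gene by 0.11 on the log2 scale, so it changes where the medians stand relative to 0 and not how far they are apart. Markers of mesenchyme, microglia, endothelium and red blood cells were higher in embryo 1, as given above, and their part in the lean was not tested.

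Length moved with this ratio in other genes too. Of coding genes at 5 TPM with a gene length under 1 kb, 87.1% were higher in embryo 2, with a median log2 ratio of -0.26. From 1 to 2 kb these were 69.0% and -0.11, from 2 to 4 kb 42.6% and 0.05, and from 4 kb on 36.4% and 0.09. The 41 members under 1 kb were higher in embryo 2 in 87.8%, with a median of -0.36, so their share was near that of short coding genes. The 25 members from 1 to 2 kb were higher in embryo 2 in 76.0%, with a median of -0.25. For the 23 members from 2 to 4 kb these were 69.6% and -0.05. The 4 longest members were too few to read. Other noncoding genes at 5 TPM leaned the same way: 43 of 60 antisense genes (71.7%) and 56 of 79 processed transcript genes (70.9%) were higher in embryo 2. The part of gene length in the members' lean was not tested.

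The groups by role did not all share this lean. The median log2 ratio was -0.33 for the 2 nuclear RNAs, -0.40 for the 4 small nucleolar RNA hosts and -0.30 for the 3 neighbours of neural regulators. The value of these neighbours is that of Lhx1os, and Pantr1 stood at 0.01. The median was -0.30 for the 2 genes linked to X inactivation and -0.09 for the 5 listed microRNA hosts. All 5 of these hosts had ratios below 1. So had the unlisted members with a microRNA gene, from Ftx (log2 ratio -0.04) to Gm27000 (-2.22), and some of these intervals spanned 1. The 3 cytoplasmic and stress-linked RNAs went the other way, with a median of 0.16 and each of the 3 ratios and intervals above 1. That median is the value of Gm26917, and the level of 2900097C17Rik is uncertain because of its copy. The lists also differ in gene length. All 4 small nucleolar RNA hosts were under 1 kb and all 3 cytoplasmic and stress-linked RNAs over 1 kb. The part of length in these medians was not tested. In none of these lists was a member 2-fold apart. The medians cover members only. Of the listed nuclear RNAs that are no members, Tug1 (ratio 1.77) and Firre (1.38) were higher in embryo 1. Neat1 (0.852), Pvt1 (0.968) and Rny1 (0.226, from 1 and 4 counts) were higher in embryo 2. The listed neighbours of neural regulators that are no members and have at least 100 summed counts went both ways. Zfhx2os (2.19), Pantr2 (1.58), Emx2os (1.20), 2610307P16Rik (1.02), A830082K12Rik (1.01) and Sox1ot (1.003) were higher in embryo 1. Crnde (0.948), Six3os1 (0.940), Lncenc1 (0.884) and Tunar (0.715) were higher in embryo 2.

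**Figure D5:**
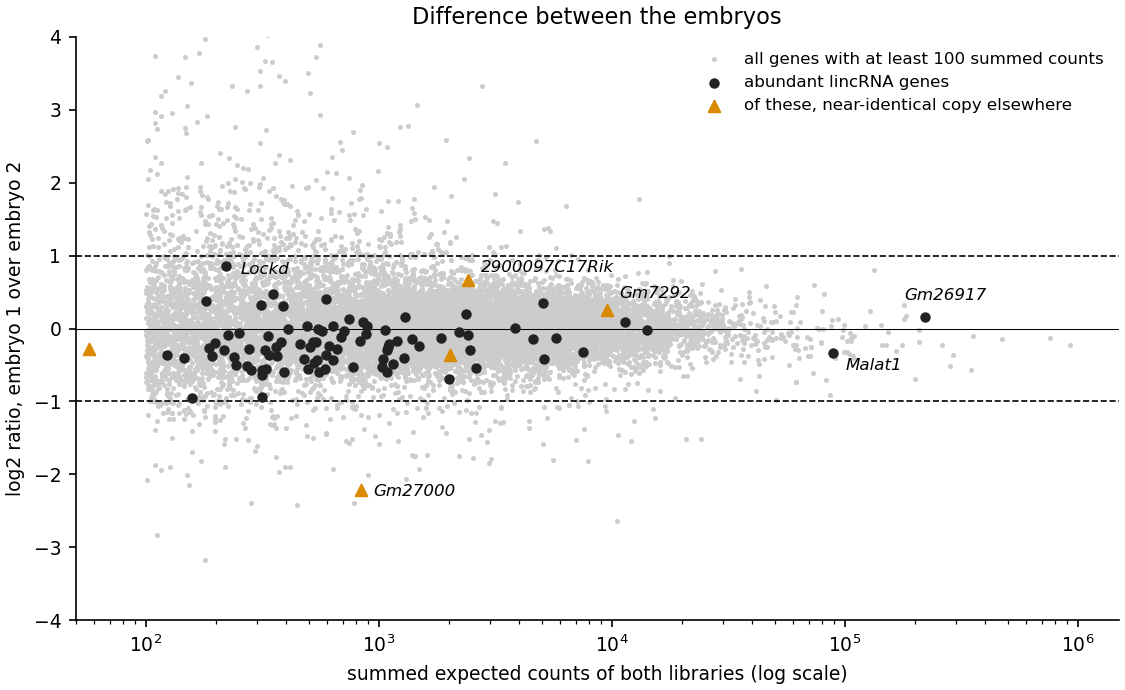
Log2 ratio of scaled expected counts, embryo 1 over embryo 2, against summed counts (log scale) for all genes with at least 100 summed counts (grey), the 93 lincRNA genes (black) and those of them with a near-identical copy elsewhere (triangles). Dashed lines mark 2-fold, and 50 grey genes lie beyond the axis at 4. Gm27000 is the only lincRNA gene of the 93 outside the lines.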

How the data were processed

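Per the deposited text records, each library's tables held genes and transcripts of mm10 with the GENCODE M4 annotation. The quantifier and its strand setting were not stated in the sources used here. The deposited expected counts (estimated read counts that need not be whole) and TPM, with the authors' posterior means, TPM bounds and effective lengths, were used as they stood. Names, types, coordinates and transcript sequences came from GENCODE M21 (GRCm38), and promoters and microRNAs from RefSeq (GRCm38.p6). Spike-ins stayed out of library sizes. Expected counts were rounded and scaled by TMM in edgeR 4.0.16, over genes with at least 10 summed counts. Log2 ratios of scaled counts used a prior count of 0.5, and the ratios and fold values used none. The 95% intervals of the ratios are exact conditional binomial ones. DESeq2 1.42.0 size factors, ERCC counts and the deposited TPM were alternatives. The ratio step was tested on simulated data. Copies were sought with BLAST 2.17.0 among all M21 transcripts. No test between groups was possible with 1 group of 2 libraries. Depth was 31687015 and 29182364 gene counts in embryo 1 and embryo 2, and 3 counts correspond to 0.170 TPM at an effective length of 1 kb in each library. Members and lists were chosen with earlier results of these data known. Genes named in the text are the 12 highest members, those 2-fold apart, the 2 members and 2 other genes nearest the minimum, the 4 highest in 1 library only, members of the lists and members holding a microRNA gene. Other genes were named after their values were seen.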

Additional observations from a re-analysis of the deposited data

How the results depend on the processing

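A minimum of 2 TPM gave 164 lincRNA genes and one of 10 TPM gave 50. Posterior mean TPM gave 94, all 93 members among them. Asking the minimum of the other library alone gave 101 without either replicate. The members' summed TPM was 10500 in embryo 1 and 11119 in embryo 2 when rescaled without ERCC and mitochondrial genes. It was 4168 and 3928 with all reads on the longest transcript, and 7313 and 8157 without Gm26917. These last 2 settings, and leaving out members with a copy, were added after seeing the data. The count of members at least 2-fold apart was 2 by the deposited TPM ratio, which added Lockd, 10 at 1.5-fold, and 0 without members that have a near-identical copy, since Gm27000 is one of them. DESeq2 and ERCC scaling move every log2 ratio by the same 0.01 and 0.11, so they say nothing on how members differ from other genes. The deposited TPM ratio, which can move each gene on its own, kept all 32 members named by the rule on their side of 2-fold and turned the sign of 6. No paired analysis was possible because the series has 1 group. Members rest on a median of 591 counts over both libraries, and the lowest on 56.8.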
